A study of Mus musculus with 4 samples.

Results

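NK-cell receptor genes encode the surface receptors with which natural killer (NK) cells read class I molecules, stress ligands and lectin-like partners on other cells. The 10 genes described here, Klrd1, Klrc1, Klrc2, Klrk1, Klrb1c, Klrb1f, Klre1, Klrg1, Ncr1 and Nkg7, are 10 of the 54752 genes counted. They were chosen because NK-cell genes were higher in the Mek1/2-tKO libraries, so their difference between the genotypes is given as a description and was not tested. Nkg7 encodes a membrane protein of cytotoxic granules and is no receptor; it was kept because the choice included it. The study measured the transcriptome of cells labelled as mouse splenic CD4+ T cells, and asked how deleting the kinases MEK1 and MEK2 changed cells polarized towards T follicular helper (Tfh) cells. Naive CD4+ T cells were sorted from spleens of WT mice or of mice with floxed Map2k1 and Map2k2 alleles and a Cd4-Cre transgene (Mek1/2-tKO), on a C57BL/6 background. Both genotypes received the same culture, with plate-bound anti-CD3, anti-CD28, IL-6 and antibodies that block TGF-β, IL-4, IL-2 and IFN-γ, and viable cells were sorted again on day 3. There were 2 libraries of each genotype. The sources used here do not give the age of these mice or say whether the libraries of a genotype came from separate mice or cultures, so each p-value measures the spread between these libraries, which may be technical. Cd4-Cre acts from the CD4-expressing stage of thymic development, so the deletion is not confined to mature CD4+ cells.

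Most genes of the killer-cell lectin-like receptors (the Klr genes) lie in a cluster on mouse chromosome 6, the NK gene complex. CD94, encoded by Klrd1, pairs with an NKG2 chain and binds Qa-1 loaded with a peptide, NKG2D binds stress-induced relatives of class I molecules, and NKR-P1 receptors bind lectins of the Clec2 family. Inhibitory members carry their own signalling motif, whereas activating members signal through adaptors such as DAP10 and DAP12, and many of these genes are also used by memory CD8+ T cells, gamma-delta T cells and NKT cells.

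The 4 libraries held 16330802 to 18931090 counts. Map2k1, the gene of MEK1, fell from 185 ± 4.01 CPM (counts per 1000000 counts of the TMM-scaled library; SD, n = 2) to 102 ± 5.01 CPM in Mek1/2-tKO, whereas Map2k2, the gene of MEK2, was at 160 ± 7.18 and 177 ± 7.52 CPM (log2 fold changes -0.86 and 0.15, adjusted p = 1.29e-06 and 0.126 in the quasi-likelihood test of edgeR, with p-values adjusted by Benjamini and Hochberg's method over all tested genes). The Map2k2 transcript was thus not lower in the libraries labelled Mek1/2-tKO, and the names of the genotypes are used here as the labels give them. Counts over a whole gene do not show whether its floxed part was deleted. The study genotyped the mice by PCR of tail DNA and measured phosphorylated MEK and ERK in naive splenic CD4+ T cells by flow cytometry. The edgeR test called a gene higher or lower where the adjusted p was below 0.05 and the levels differed by 1.5-fold or more. Its filter on low counts was passed by 14330 genes. A gene that missed either threshold is said not to have passed the test. Of 10 alpha-beta T-cell markers 5 fell and 5 did not pass the test, and their summed level was 2730 and 2740 CPM in WT and 1832 and 1685 CPM in Mek1/2-tKO. Cd4, the marker of the labelled cell type, had 5788 and 5581 counts in WT and 291 and 472 counts in Mek1/2-tKO (log2 fold change -3.73, edgeR adjusted p = 2.43e-11), and Cd3e, a chain of the T-cell receptor complex, had a log2 fold change of -1.06 (edgeR adjusted p = 7.2e-07). Trac, the constant region of the alpha chain, also fell (log2 fold change -0.98, edgeR adjusted p = 5.41e-07), as did Cd247, given below. Cd5 and Cd6 were lower as well, with log2 fold changes of -1.55 and -1.10 (edgeR adjusted p = 2e-09 and 3.45e-08). Cd3g, Cd3d, Trbc1 and Trbc2 did not pass the test, with log2 fold changes of 0.24, 0.20, 0.16 and -0.03. Lck did not reach the fold threshold (log2 fold change -0.54, edgeR adjusted p = 2.39e-05). The summed levels of other markers were higher in both Mek1/2-tKO libraries, at 67.4 and 59.3 against 238 and 214 CPM for 2 CD8 genes, 21.9 and 22.6 against 289 and 282 CPM for gamma-delta T-cell genes, 1230 and 1206 against 6453 and 6382 CPM for B-cell genes, and 1.54 and 1.97 against 23.1 and 16.1 CPM for myeloid genes. Of the gamma-delta sum, Blk alone gave 14.9 and 17.8 CPM in WT and 105 and 116 CPM in Mek1/2-tKO. Both CD8 genes, the 6 tested gamma-delta genes and the 8 B-cell genes rose, as 19.3% of all tested genes did. Of the tested gamma-delta genes, Sox13 (2 and 4 counts in WT) and Tcrg-C1 (30 and 7) had fewer than 10 counts in a WT library. Of the 10 myeloid genes 5 were tested and rose, but 4 of these had fewer than 10 counts in a WT library, and only Cd14 had at least 10 counts in every library. Trdc, the constant region of the delta chain, had 32 and 30 counts in WT and 897 and 1006 in Mek1/2-tKO (log2 fold change 5.12, edgeR adjusted p = 3.89e-11). The part of these cell types in the values of the NK-cell receptor genes was not tested, and in bulk samples fewer cells of a type and less RNA per cell cannot be told apart.

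The 10 members were higher in both Mek1/2-tKO libraries than in both WT libraries. This is the direction that chose them, and 39.5% of the tested genes also had both Mek1/2-tKO libraries above both WT libraries in CPM. All 10 members passed the thresholds for a higher level, as 19.3% of the 14330 tested genes did, whereas 16.4% passed them for a lower level, and nothing is read from the members' count. Their log2 fold changes ran from 2.72 to 5.14. Of the members, 7 had at least 10 counts in both WT libraries, and the other 3 (Klrc2, Klrb1f and Klrg1) passed the filter on low counts only through the Mek1/2-tKO libraries. Summed over the members, the level was 81.6 and 84.3 CPM in WT and 642 and 586 CPM in Mek1/2-tKO. Low counts were even more often than odd, with 70.1% to 72.7% even counts among genes with 6 to 20 counts in a library against 49.7% to 50.6% among genes with at least 1000 counts. The intervals given for low counts pool the 2 libraries of a genotype, cover counting error only and are no test of the members. They would be wider if both mates of a read pair had been counted, which the sources used here do not state.

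**Figure D1:**
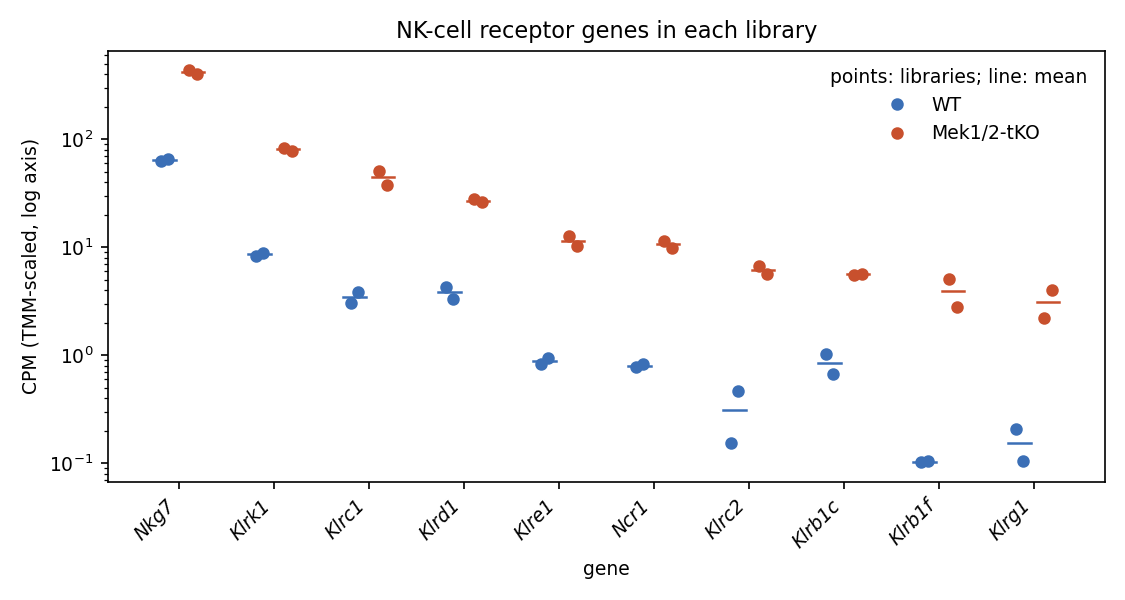
Each point is the CPM of a gene in 1 library, on a log axis, with the genes in order of their Mek1/2-tKO level and a short line at the mean of the 2 libraries of a genotype. Both Mek1/2-tKO points of each of the 10 genes lie above both WT points, from 405 and 436 CPM for Nkg7 down to 2.20 and 3.99 CPM for Klrg1.

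CD94 and its NKG2 partners form the inhibitory and activating receptors for Qa-1, and their genes, like those of the other 5 Klr members, lie on chromosome 6 (GRCm38, whole-gene positions from the files). Klrd1 (ENSMUSG00000030165.16, chromosome 6, 129591782 to 129598775, plus strand), which encodes CD94, had 84 and 64 counts in WT and 430 and 496 counts in Mek1/2-tKO. Its mean level was 3.82 ± 0.70 CPM (SD, n = 2) in WT and 27.1 ± 0.96 CPM (SD, n = 2) in Mek1/2-tKO, a log2 fold change of 2.83 ± 0.19 (SE). Klrc1 (ENSMUSG00000030167.15, 129666015 to 129678973, minus strand) encodes NKG2A, the inhibitory partner of CD94. It had 60 and 75 counts in WT and 793 and 713 counts in Mek1/2-tKO, and the log2 fold change was 3.67 ± 0.20 (SE). Klrc2 (ENSMUSG00000052736.15, 129647496 to 129660689, minus strand) encodes NKG2C, the activating partner. It had 3 and 9 counts in WT and 103 and 106 counts in Mek1/2-tKO, so that its ratio of library-scaled counts was 18.6 (exact 95% interval 10.4 to 36.6). Each of these 3 genes had both Mek1/2-tKO libraries above both WT libraries, the direction that chose them, as did 39.5% of the tested genes. The WT level of Klrc2 rested on 12 counts. Of the 100-base stretches in the annotated transcripts of Klrc1, 14.6% also occurred in Klrc2 transcripts, and 7.09% of those of Klrc2 occurred in Klrc1 or Klrc3, so reads from these stretches cannot be assigned with certainty.

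Klrk1 (ENSMUSG00000030149.15, 129610323 to 129623864, minus strand) encodes NKG2D, the activating receptor for stress-induced class I relatives. It had 163 and 170 counts in WT and 1286 and 1475 counts in Mek1/2-tKO. Its level was 8.59 ± 0.32 CPM (SD, n = 2) and 80.8 ± 3.19 CPM (SD, n = 2), and the log2 fold change was 3.23 ± 0.12 (SE). Klre1 (ENSMUSG00000050241.8, 129577905 to 129585827, plus strand) encodes a receptor that pairs with the products of Klri1 or Klri2. It had 16 and 18 counts in WT and 198 and 194 in Mek1/2-tKO, a log2 fold change of 3.71 ± 0.30 (SE). For both genes the libraries of a genotype lay close together relative to the gap between the genotypes.

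The 2 NKR-P1 genes among the members had low WT counts. Klrb1c (ENSMUSG00000030325.16, 128778485 to 128789215, minus strand) encodes NKR-P1C, an activating receptor known as the NK1.1 antigen in C57BL/6 mice. It had 20 and 13 counts in WT and 86 and 107 counts in Mek1/2-tKO, a log2 fold change of 2.72 ± 0.38 (SE). On the same strand, Gm44511 covered 13.9% of the exon bases of Klrb1c, and 10.8% of the 100-base stretches in its transcripts also occurred in Gm44511 or Klrb1a. Klrb1f (ENSMUSG00000030154.10, 129045901 to 129057464, plus strand) encodes NKR-P1F, a receptor for a Clec2 lectin. It had 2 counts in each WT library and 78 and 52 counts in Mek1/2-tKO, a ratio of 34.7 (exact 95% interval 13.2 to 129). Its WT counts were below the count of 3 used as the detection floor here, so the size of this ratio is poorly determined.

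Klrg1 (ENSMUSG00000030114.8, 122270596 to 122282882, minus strand), an inhibitory receptor for cadherins, was the third member with few WT counts. It had 4 and 2 counts in WT and 34 and 75 counts in Mek1/2-tKO, a ratio of 19.4 (exact 95% interval 8.63 to 54.0). The 2 Mek1/2-tKO libraries of Klrg1 differed from each other by 0.83 on the log2 scale, with the higher value in replicate 2. Ncr1 (ENSMUSG00000062524.4, chromosome 7, 4337724 to 4345164, plus strand) encodes NKp46, an activating receptor used as a defining marker of NK cells. It had 15 and 16 counts in WT and 178 and 185 counts in Mek1/2-tKO, a log2 fold change of 3.73 ± 0.31 (SE). Nkg7 (ENSMUSG00000004612.9, chromosome 7, 43437073 to 43438249, plus strand) was the most abundant member. It had 1223 and 1256 counts in WT and 6757 and 7606 counts in Mek1/2-tKO, a log2 fold change of 2.72 ± 0.08 (SE), the smallest standard error of the 10.

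The size of the difference was steadier for some members than for others. When single libraries were dropped, the log2 fold change of Klrk1 stayed between 3.19 and 3.27, that of Nkg7 between 2.66 and 2.76 and that of Ncr1 between 3.61 and 3.83. For Klrc2 it ran from 3.69 to 5.25, for Klrb1f from 4.66 to 5.51 and for Klrg1 from 3.76 to 4.81. These 3 are the members with few WT counts. Between the Mek1/2-tKO libraries, replicate 2 differed from replicate 1 by -0.84 for Klrb1f, -0.43 for Klrc1 and -0.31 for Klre1 on the log2 scale, whereas for Klrg1 it was higher by 0.83. For Klrd1, Klrk1 and Klrb1c the replicates differed by -0.07, -0.08 and 0.04. The Mek1/2-tKO replicates thus differed by more for Klrb1f and Klrg1, in opposite directions, than for the other members.

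**Figure D2:**
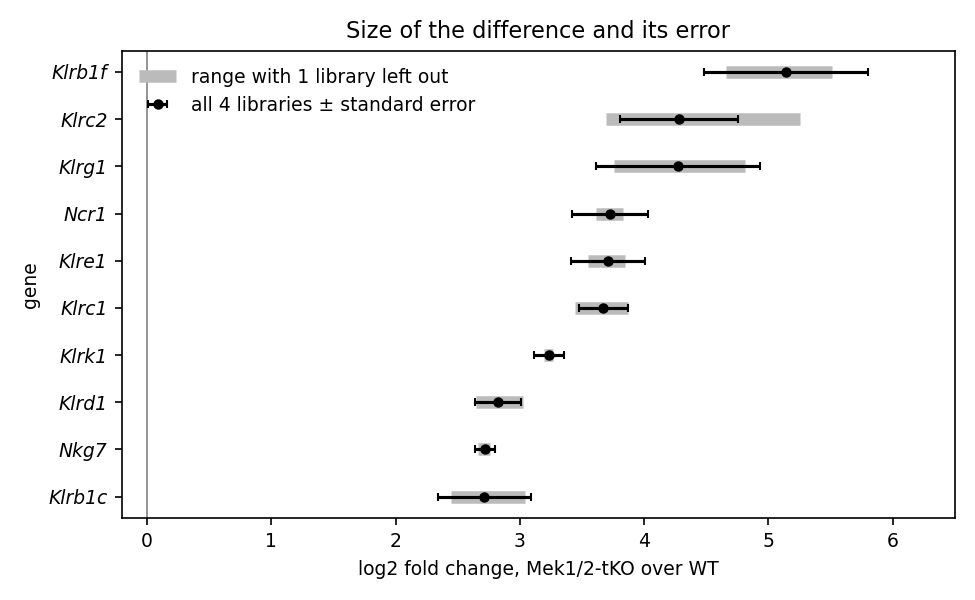
Black points give the log2 fold change of each gene with its standard error over all 4 libraries, and grey bars give the range when 1 library was left out. Klrb1f had the highest value at 5.14 and Klrb1c the lowest at 2.72, and the bars are widest for the genes with few WT counts.

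Levels of different members were compared within a library and per exon length, as TPM (counts per exon length, scaled to the same sum in each library) computed from the counts. In WT, Nkg7 was highest at 136 ± 2.61 TPM (SD, n = 2), followed by Klrd1 at 5.77 ± 1.10, Klrc1 at 3.40 ± 0.54 and Klrk1 at 2.32 ± 0.07 TPM. Ncr1 followed at 1.006 ± 0.05 TPM, Klrb1c and Klre1 overlapped at 0.56 ± 0.17 and 0.49 ± 0.04 TPM, and Klrg1, Klrc2 and Klrb1f were lowest at 0.10 to 0.21 TPM. In Mek1/2-tKO, Nkg7 was again highest at 667 ± 17.3 TPM, and Klrc1 at 32.4 ± 4.29 TPM and Klrd1 at 30.7 ± 1.33 TPM overlapped between libraries. Klrk1 at 16.3 ± 0.64 TPM and Ncr1 at 10.03 ± 0.31 TPM came next, followed by Klre1 at 4.78 ± 0.34 TPM. Klrg1, Klrb1c and Klrb1f overlapped one another at 3.23 ± 1.56, 2.76 ± 0.27 and 2.76 ± 0.93 TPM, and Klrc2 was lowest at 1.53 ± 0.06 TPM. The annotated exons of Klrk1 (7183 bases) and Klrc2 (5812 bases) are long, which lowers their levels per length.

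The make-up of the summed member level was compared next. Without Nkg7, Klrd1 made up 45.6% and 36.9% of the summed TPM of the other 9 members in WT and 28.1% and 30.7% in Mek1/2-tKO. Klrc1 made up 21.0% and 27.9% in WT and 33.4% and 28.5% in Mek1/2-tKO. The share of Klrb1f was 0.69% and 0.73% in WT and 3.22% and 2.04% in Mek1/2-tKO. The Klrc1 to Klrd1 ratio of TPM was 0.461 and 0.757 in WT and 1.19 and 0.928 in Mek1/2-tKO, which did not overlap. For Klrk1 the share was 15.8% and 17.5% in WT and 14.97% and 16.3% in Mek1/2-tKO, and these ranges overlapped. Shares come from the same counts that chose the members and are given without a test.

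**Figure D3:**
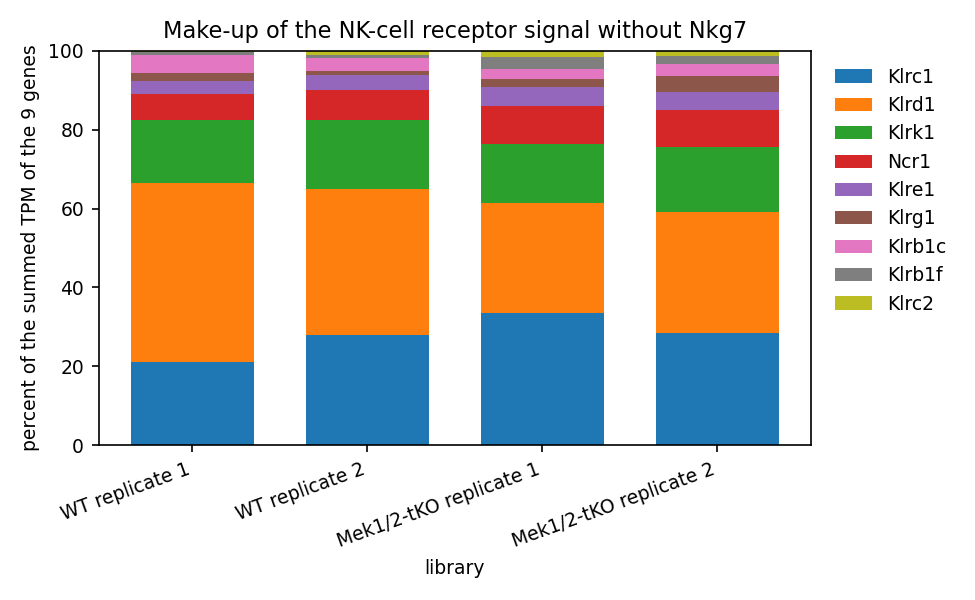
Stacked bars give the percent that each of 9 members contributes to their summed TPM in each library, with Nkg7 left out. The Klrd1 segment is taller in both WT libraries (45.6% and 36.9%) than in both Mek1/2-tKO libraries (28.1% and 30.7%).

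Motifs of factor families with known roles in NK cells were searched in the promoters of the members. RefSeq promoter sequences (GRCm38.p6) were matched for 8 of the 10 members, all except Klrd1 and Klrg1. In the 250 bases before the first listed start, searched on both strands, the RUNX motif TGTGGT was found in 7 of the 8, the T-box motif GGTGTGA in 1 (Nkg7) and the ETS motif AGGAAG in 3 (Klrb1c, Klrb1f and Nkg7). The same motifs were in 14.2%, 3.31% and 29.2% of all 27025 promoters in windows of the same length, and no motif of one kind overlapped one of another kind. For Klrb1c and Klre1 the window lies wholly inside the counted gene, and for Klrc2 and Nkg7 93 and 65 of its bases do. In the 4 windows that lie wholly outside the counted gene the RUNX motif was in 3. A match describes letters and is not a binding site. The 4 sequences printed here are those 4 windows, written 5′ to 3′ on the strand of the gene. Capitals mark the RUNX motif in Klrc1 (chr6:129678974-129679223, minus strand), Klrk1 (chr6:129623865-129624114, minus strand) and Ncr1 (chr7:4337465-4337714, plus strand), and the ETS motif in Klrb1f (chr6:129045651-129045900, plus strand), in either orientation. In Ncr1 the RUNX matches began 176 and 41 bases before the start, and in Klrc1, Klrk1 and Klrb1f the only match began 87, 129 and 25 bases before it.
Klrc1: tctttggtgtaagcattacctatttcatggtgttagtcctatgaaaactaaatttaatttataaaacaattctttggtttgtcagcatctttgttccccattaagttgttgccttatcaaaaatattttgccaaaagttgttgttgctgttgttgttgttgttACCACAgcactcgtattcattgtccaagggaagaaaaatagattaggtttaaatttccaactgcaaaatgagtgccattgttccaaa
Klrk1: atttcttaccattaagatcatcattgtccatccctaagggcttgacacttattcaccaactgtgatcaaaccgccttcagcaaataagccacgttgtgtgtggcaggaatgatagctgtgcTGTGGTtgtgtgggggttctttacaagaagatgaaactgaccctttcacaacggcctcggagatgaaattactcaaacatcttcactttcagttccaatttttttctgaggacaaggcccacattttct
Ncr1: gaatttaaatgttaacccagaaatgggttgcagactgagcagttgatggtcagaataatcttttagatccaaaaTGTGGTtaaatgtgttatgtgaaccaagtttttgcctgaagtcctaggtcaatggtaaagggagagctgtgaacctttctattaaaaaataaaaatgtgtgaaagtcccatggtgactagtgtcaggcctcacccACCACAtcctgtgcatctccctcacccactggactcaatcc
Klrb1f: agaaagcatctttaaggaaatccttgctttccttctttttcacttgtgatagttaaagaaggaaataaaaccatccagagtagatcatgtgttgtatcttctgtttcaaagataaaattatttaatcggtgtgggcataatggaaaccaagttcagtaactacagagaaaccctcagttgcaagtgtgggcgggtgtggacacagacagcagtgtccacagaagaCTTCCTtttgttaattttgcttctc

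Of the 22 other Klr genes, 11 passed the filter on low counts. Of these, 10 (90.9%) rose in Mek1/2-tKO, against 19.3% of all tested genes, but 8 of the 11 passed the filter without having at least 10 counts in every library. Of the 3 that had, 2 rose. The median log2 fold change was 3.40 over the 11 genes and 0.02 over all tested genes. Klra8, which encodes the activating receptor Ly49H, had 4 and 5 counts in WT and 129 and 85 in Mek1/2-tKO (log2 fold change 4.74 ± 0.51 SE, edgeR adjusted p = 3.57e-06). Klra4, which encodes the activating receptor Ly49D, had 6 counts in each WT library and 118 and 84 in Mek1/2-tKO (log2 fold change 4.25 ± 0.48 SE, edgeR adjusted p = 5.43e-06). Klra9, another gene of the Ly49 family, had 4 and 2 counts in WT and 45 and 38 in Mek1/2-tKO (log2 fold change 3.93 ± 0.69 SE, edgeR adjusted p = 0.000253). These 3 genes had fewer than 10 counts in each WT library, and 14.4% of the 100-base stretches of Klra8 transcripts also occurred in Klra9 or Klra14-ps. The one gene that did not pass the test, named after its values were seen, was Klra1, which encodes the inhibitory receptor Ly49A. It had 28 and 37 counts in WT and 26 and 41 in Mek1/2-tKO, and the genotypes overlapped (log2 fold change 0.21 ± 0.45 SE, edgeR adjusted p = 0.715). The 11 untested genes had at most 22 counts in a library, and Klra17, Klrb1 and Klrb1-ps1 had 0 counts in all 4 libraries, which allows a level of up to 0.154 to 0.194 CPM, the level of 3 counts in a library.

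The genes around the members on chromosome 6 were also read. Between the Klrb1 and Klra families, a stretch of 2.64 Mb from 128609227 to 131247362 (GRCm38) that was chosen after seeing the data, lay 28 Klr genes, 7 of them members, and 93 other genes. Klrg1 lies outside it. The members inside had a median log2 fold change of 3.67, the 11 other tested Klr genes 3.40 and the 13 other tested genes 1.59. Of these 13 genes 8 (61.5%, against 19.3% of all tested genes) rose and 5 did not pass the test. Clec7a encodes the glucan receptor Dectin-1 of myeloid cells. It had 5 and 14 counts in WT and 108 and 69 in Mek1/2-tKO (log2 fold change 3.42, edgeR adjusted p = 8.54e-05). Clec12a, an inhibitory lectin of myeloid cells, had 0 and 8 counts in WT and 36 and 30 in Mek1/2-tKO (edgeR adjusted p = 0.00567), and all of its WT counts were in replicate 2. Gm15987 rose by 3.17 on the log2 scale (edgeR adjusted p = 2.49e-06). The summed myeloid markers moved with these genes, as given above, and their part was not tested. Between the outermost Klr genes on the chromosome, from 38625693 to 131247362, 194 of 611 other tested genes (31.8%) rose and 82 (13.4%) fell. Of all tested genes 19.3% rose and 16.4% fell. That interval also holds Cd8a, Cd8b1 and the immunoglobulin kappa segment Igkv8-30, which rose, and Cd4, which fell. The part of such genes in these shares was not tested.

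**Figure D4:**
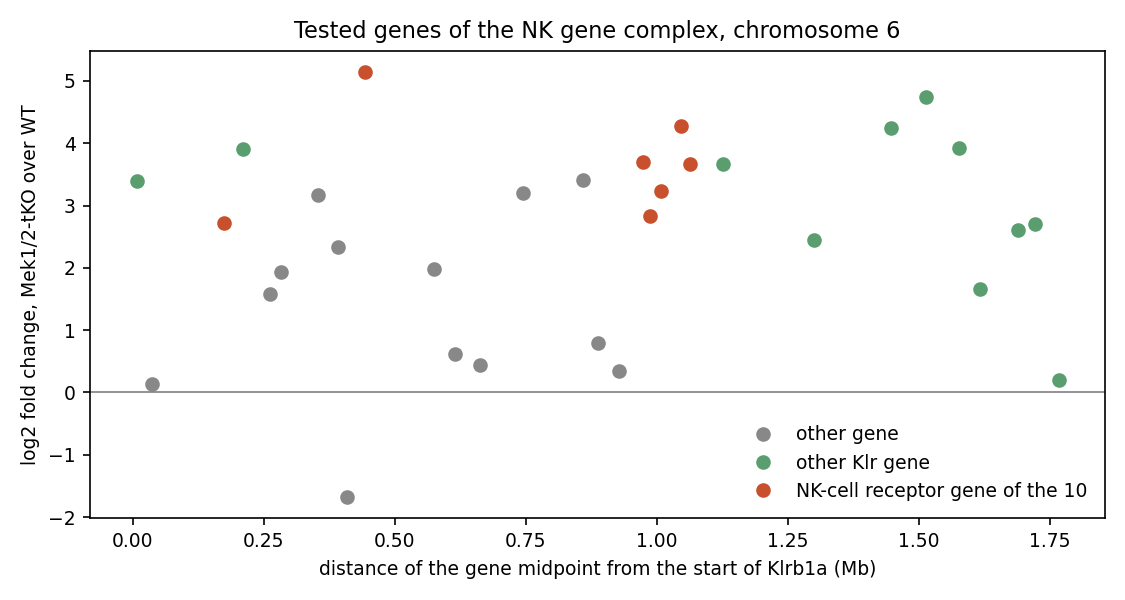
Each point is a tested gene between the Klrb1 and Klra families on chromosome 6, with its distance from the start of Klrb1a in Mb on the horizontal axis and its log2 fold change on the vertical axis. The 7 members run from 2.72 to 5.14, the 11 other Klr genes from 0.21 to 4.74 and the 13 remaining genes from -1.67 to 3.42.

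The adaptors through which the activating members signal were described from a list of adaptor and signalling genes. Of the 11 tested 3 (27.3%) rose, 3 (27.3%) fell and 5 did not pass the test, against 19.3% and 16.4% of all tested genes, with a median log2 fold change of 0.28. Tyrobp encodes DAP12, an adaptor of NKG2D, NKG2C and the activating Ly49 receptors that myeloid cells also use. It had 26 and 34 counts in WT and 315 and 300 counts in Mek1/2-tKO (log2 fold change 3.54 ± 0.25 SE, edgeR adjusted p = 6.95e-08). Fcer1g, which encodes the Fc receptor gamma chain used by NKp46 and by myeloid cells, had 46 and 58 counts in WT and 400 and 483 in Mek1/2-tKO (log2 fold change 3.26 ± 0.20 SE, edgeR adjusted p = 1.35e-08). The summed myeloid markers also moved with the genotype, and their part in Tyrobp and Fcer1g was not tested. Hcst, which encodes DAP10, the other adaptor of NKG2D, had 160 and 176 counts in WT and 180 and 247 in Mek1/2-tKO. Its log2 fold change of 0.52 ± 0.19 (SE) had an edgeR adjusted p of 0.0328 and did not reach the fold threshold. The ratio of Klrk1 to Hcst in TPM was 0.102 and 0.097 in the WT libraries and 0.718 and 0.600 in the Mek1/2-tKO libraries, whereas the ratio of Klrk1 to Tyrobp was 0.582 and 0.464 in WT and 0.379 and 0.457 in Mek1/2-tKO. Among the signalling genes, Syk, a kinase recruited by DAP12, rose by 1.43 on the log2 scale (edgeR adjusted p = 1.64e-08), and Zap70, the related kinase of the T-cell receptor, fell by 1.12 (edgeR adjusted p = 8.35e-08). Ptpn11, a phosphatase recruited by inhibitory receptors, and Cd247, the zeta chain, had log2 fold changes of -0.85 and -0.79 (edgeR adjusted p = 1.48e-06 and 2.6e-06), but 56.4% of the exon bases of Cd247 overlapped genes on the other strand, and the strand setting of the counting is not given in the sources used here.

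Of the 5 tested genes for ligands of the members or of their close relatives 3 rose, against 19.3% of all tested genes, with a median log2 fold change of 0.96. H2-T23, which encodes Qa-1, the ligand of CD94 with NKG2A or NKG2C, rose from 480 ± 10.4 to 935 ± 46.0 CPM (SD, n = 2; log2 fold change 0.96 ± 0.08 SE, edgeR adjusted p = 1.93e-07). Clec2d, which encodes a ligand of an inhibitory NKR-P1 receptor that is not among the members, had 866 and 739 counts in WT and 2798 and 2726 in Mek1/2-tKO (log2 fold change 1.98 ± 0.12 SE, edgeR adjusted p = 1.18e-08). Clec2i, whose product is a ligand of the receptor encoded by Klrb1f, rose by 1.94 ± 0.18 (SE) on the log2 scale (edgeR adjusted p = 1.09e-06). Clec2f, a gene of the same lectin family, went the other way, with 19 and 17 counts in WT and 2 and 8 in Mek1/2-tKO. It did not pass the test (log2 fold change -1.67 ± 0.76 SE, edgeR adjusted p = 0.0747). Ulbp1, which encodes a ligand of NKG2D, had 278 and 203 counts in WT and 261 and 306 in Mek1/2-tKO and did not pass the test (log2 fold change 0.42, edgeR adjusted p = 0.064). Other NKG2D ligands had few counts, with at most 8 in a library for Raet1d and H60b and 0 in all 4 libraries for Raet1e and H60c. Of the cadherin ligands of KLRG1, Cdh1 had 2 and 0 counts in WT and 6 and 14 in Mek1/2-tKO, and Cdh2 and Cdh4 had 0 counts in all 4 libraries. H2-T23 and Clec2d are expressed by many cell types, B cells among them, and the part of the B-cell markers given above was not tested.

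The other receptors, transcription factors and granule genes of NK cells were read as whole lists beside the members, with the marker lists of the other cell types. Of 11 tested other surface receptors 6 (54.5%) rose and 1 (Itga2) fell, of 11 tested transcription factors 3 (27.3%) rose and 3 fell, and of 11 tested granule genes 7 (63.6%) rose and 1 fell, against 19.3% of all tested genes higher and 16.4% lower. The medians of their log2 fold changes were 0.97, 0.39 and 1.34. Of the receptors that rose, Fcgr3 had 8 counts in each WT library and passed the filter on low counts only through the Mek1/2-tKO libraries. The call of Itga2, the gene of the NK-cell marker CD49b, was lost with the replicate number as a block (edgeR adjusted p = 0.0542), with DESeq2 (adjusted p = 0.12) and with any 1 library left out. Of the NK-defining markers, Ncr1, Klrb1c and Klrd1 are members with higher values in Mek1/2-tKO, Eomes rose, Itga2 fell and Il2rb did not pass the fold threshold.

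The genes whose pattern over the 4 libraries was closest to the mean of the members included genes of B cells and antigen-presenting cells. Among 9602 genes ranked by the root mean square distance of centred log2 CPM, the closest were Ctsh (distance 0.023), Cd79a (0.043), Fcgr2b (0.062), March1 (0.075) and Igkv8-30 (0.087). Ctsh encodes a cathepsin, Cd79a a chain of the B-cell receptor, Fcgr2b an inhibitory Fc receptor, March1 a ubiquitin ligase and Igkv8-30 a segment of the immunoglobulin kappa chain. With 2 libraries a genotype, this likeness rests mainly on the size of the difference between the genotypes, and the log2 fold changes of the 5 genes lay between 3.28 and 3.43.

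**Figure D5:**
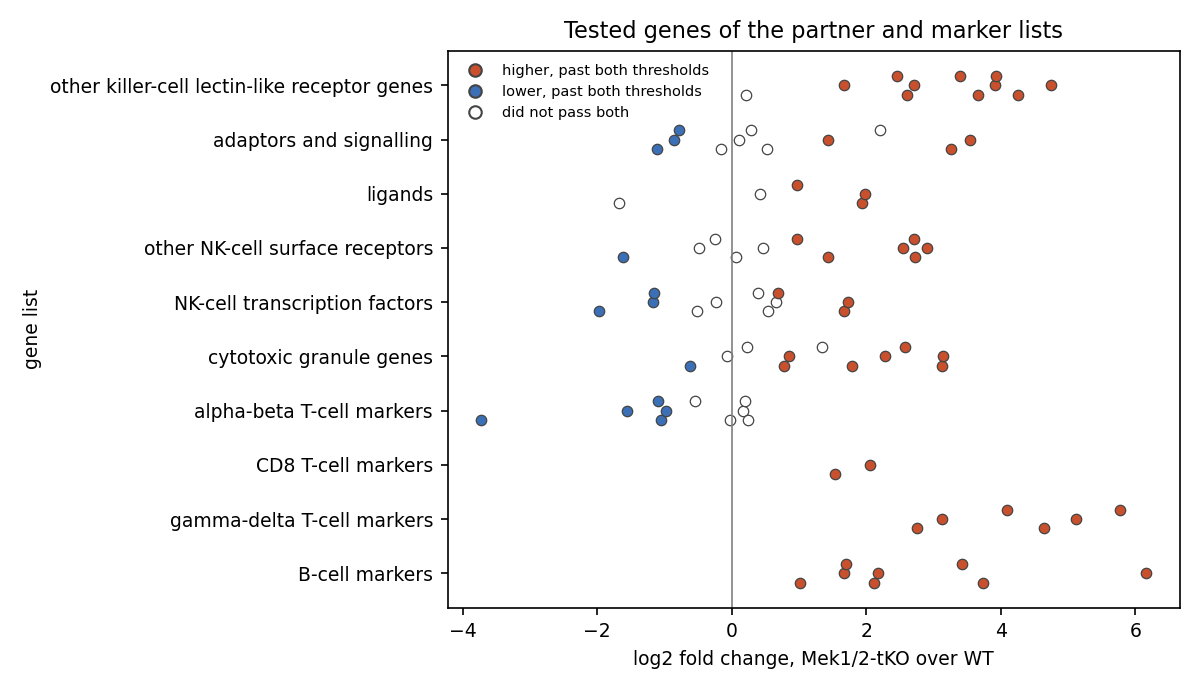
Each point is the log2 fold change of a tested gene, grouped by gene list and coloured by whether it passed the thresholds. Points of the other Klr genes lie right of 0, as do those of the gamma-delta T-cell and B-cell markers, while the adaptors and transcription factors lie on both sides.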

How the data were processed

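RNA was measured in 2 WT and 2 Mek1/2-tKO libraries of polarized mouse CD4+ T cells. Per the methods and the submitters' processing notes, the authors trimmed paired reads with Trimmomatic 0.36, mapped them to GRCm38 and counted uniquely mapped reads per gene with featureCounts (Subread 1.5.1), and the deposited values are whole-number counts per gene with no normalization. The annotation release and the strand setting are not given in the sources used here. Of 54752 gene identifiers 54723 matched a symbol.

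Genes were filtered with filterByExpr (minimum count 10), scaled by TMM and tested with edgeR 4.0.16 (robust quasi-likelihood, genotype only) in R 4.3.3, with Benjamini-Hochberg adjustment over 14330 genes. CPM used TMM library sizes, and TPM used the exon lengths in the files. A level allowed by 0 counts is that of 3 counts in the library. Count ratios of genes with few WT counts have exact 95% binomial intervals on counts summed over the 2 libraries of a genotype. As alternatives served a likelihood-ratio test, DESeq2 1.42.0, other scaling, filters and fold thresholds, a replicate block, each library left out, halved counts and a narrower chromosome 6 interval, the last 2 chosen after seeing the data.

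The members and the gene lists were chosen with earlier results of these data known. Named were all members, the 3 called genes with the largest change in each direction of each list (some not printed, and none for the wide chromosome 6 interval), selected adaptors, ligands and markers whatever their values, and the 5 genes with the nearest profile. Klra1, Cd226, Tigit, Ulbp1, Clec2f, Lck, Cd14, Blk, Sox13, Tcrg-C1, Fcgr3, the other T-cell receptor chains and the ligand genes with few counts were named after their values were seen. Replicates were not copies of each other, with a chi-square per gene of 4.11 (WT) and 10.7 (Mek1/2-tKO).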

Additional observations from a re-analysis of the deposited data

How the results depend on the processing

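The 10 members kept their direction in all 117 alternative values computed for single members. They were chosen for this direction and the alternatives refit the same counts, so keeping it adds no support. Of the 117 values, 107 were within the spread between replicates, and the lowest log2 fold change was 2.45. The members' median of 3.69 was 3.25 with at least 10 counts in every library, which left 7 members, and 3.50 to 3.79 with each library left out. Leaving out a library leaves a genotype with 1 library, which is assumed to vary like the other genotype. With a threshold of 2-fold in place of 1.5-fold, 1725 genes were called higher and 1040 lower in place of 2768 and 2355, and the genes called lower were 1 in place of 3 among adaptors and 0 in place of 1 among granule genes. With at least 10 counts in every library, 2 other Klr genes were called higher in place of 10 (3 were tested), 1 myeloid marker in place of 5, and 0 other surface receptors were called lower in place of 1. That receptor gene is Itga2 (log2 fold change -1.63), which was also lost with DESeq2 (adjusted p = 0.12), with the replicate number as a block (edgeR adjusted p = 0.0542, 0 called lower) and without any 1 library (range of log2 fold changes -1.94 to -1.35, 0 called lower in each). The replicate block gave 2652 higher and 2300 lower genes. Same-numbered libraries did not deviate together (correlation -0.026 over 14330 genes), which cannot show whether their mice or cultures were paired. Ligands called higher were 3 to 5 with a library left out, the 5 without WT replicate 1, and the likelihood-ratio test called 1 ligand lower in place of 0. Granule genes called lower were 0 to 1 with a library left out, the 0 without Mek1/2-tKO replicate 1, and myeloid markers called higher were 3 to 5, the 3 again without that library, and 3 with halved counts. Narrowing the chromosome 6 interval to the Klrb1 and Klra families changed 194 and 82 genes to 8 and 0. Differences near 0 turned direction, Klra1 to -0.006 and Inpp5d to -0.012 without Mek1/2-tKO replicate 2 (ranges -0.006 to 0.43 and -0.012 to 0.21), Cd226 to -0.018 with library size alone and to -0.011 without WT replicate 1 (range -0.044 to 0.17), and Trbc2 to 0.011 without WT replicate 1 and 0.049 without Mek1/2-tKO replicate 2 (range -0.12 to 0.049). The causes were not tested, other than the fewer genes or libraries that an alternative leaves by its construction. Counts of 2 to 9 in a WT library for Klrc2, Klrb1f and Klrg1 limit the precision of their folds.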

Other observations

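Of 11 tested other surface receptors of NK cells 6 rose in Mek1/2-tKO, 1 fell and 4 did not pass the test. Of all tested genes 19.3% rose and 16.4% fell, and the 6 include Fcgr3 with the few WT counts given above. Cd160, a receptor for class I-like molecules, had 132 and 135 counts in WT and 861 and 902 in Mek1/2-tKO (log2 fold change 2.91 ± 0.14 SE, edgeR adjusted p = 2.04e-09). Crtam, an adhesion receptor of activated lymphocytes, and Il18rap, a subunit of the interleukin-18 receptor, rose by 2.73 and 2.71 on the log2 scale (edgeR adjusted p = 3.39e-11 and 3.81e-09). Itga2, which encodes the NK-cell marker CD49b, went the other way, with 37 and 27 counts in WT and 10 and 8 in Mek1/2-tKO (edgeR adjusted p = 0.0311, lost under several alternatives given above). Il2rb, a receptor subunit for interleukin-15, had a level of 638 ± 14.5 CPM in WT against 535 ± 20.6 CPM in the other genotype (SD, n = 2) and did not reach the fold threshold. Cd226 and Tigit had log2 fold changes of 0.07 and -0.49 (edgeR adjusted p = 0.666 and 0.00919), and Tigit did not reach it either. Of the genes for granule proteins, Gzmc and Ctsw rose by 3.14 and 3.13 on the log2 scale (edgeR adjusted p = 6.85e-10 and 1.08e-10), and Prf1, which encodes perforin, rose from 31.5 ± 0.56 to 187 ± 13.6 CPM (SD, n = 2, edgeR adjusted p = 1.21e-10). Unc13d, which acts in granule release, fell by 0.63 on the log2 scale (edgeR adjusted p = 6.79e-05).

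Transcription factors known from NK cells moved in both directions. Eomes, which supports NK-cell maturation, rose from 19.2 ± 3.65 to 63.7 ± 2.76 CPM (SD, n = 2, edgeR adjusted p = 1.71e-07), and Id2, required for NK-cell development, rose by 1.66 on the log2 scale (edgeR adjusted p = 2.68e-08). Irf2 rose by 0.69 (edgeR adjusted p = 0.00302), and without Mek1/2-tKO replicate 2 its log2 fold change was 0.31. Tox, Nfil3 and Runx3, also on the list of factors known from NK cells, had log2 fold changes of -1.98, -1.17 and -1.16 (edgeR adjusted p = 1.74e-05, 3.71e-07 and 5.66e-07). Tbx21, which encodes T-bet, had a log2 fold change of -0.23 (edgeR adjusted p = 0.0378) and did not reach the fold threshold. Markers of other cell types had log2 fold changes of 6.17 for Fcrla and 3.73 for Cd79b of B cells, 5.78 for Tcrg-C4 and 4.65 for Tcrg-C2 of gamma-delta T cells, and 2.06 for Cd8a. Adgre1, a macrophage marker, had 0 counts in both WT libraries and 66 and 83 in Mek1/2-tKO, at least 28.1-fold higher than the floor of 3 counts per library. Whether these cell types contributed NK-cell receptor transcripts was not tested.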
